A study of Homo sapiens with 6 samples.

Results

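The 44 collagen genes are the protein-coding entries of the count table named COL, a type number, A and a chain number, out of 60662 genes in all. By what their products build they were grouped into 11 fibrillar chains, 6 type IV chains of basement membrane and 27 others. Their RNA was measured by stranded mRNA sequencing of TC-71, a human cell line established from Ewing sarcoma, a tumour of bone and soft tissue; the labelled source is bone. The groups were 3 libraries labelled XG knockout and 3 labelled wildtype, all untreated and grown in the same medium with serum. XG encodes the cell-surface glycoprotein of the Xg blood group. How XG was disrupted, and whether in a pool of cells or 1 clone, is not stated in the labels. Nor is it stated that replicates are separate cultures, and every p-value given here is set against library-to-library spread, which may be technical.

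Collagens are secreted or membrane proteins whose chains carry glycine at every repeat of a short motif and wind together as trimers. Fibrillar collagens form the banded cables of bone, cartilage, skin and tendon; type IV collagen forms the sheet-like network of basement membranes; and the FACIT collagens sit on fibril surfaces. Osteoblasts make mainly type I and chondrocytes mainly type II collagen, and tumours of bone differ in which of these they deposit.

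Fragments assigned to genes numbered 22557187 to 31214099 per library. XG stood at 30.0, 30.0 and 28.9 CPM (a gene's count relative to the total of its library) in knockout replicates 1, 2 and 3, against 45.4, 47.1 and 44.4 CPM in wildtype replicates 1, 2 and 3. XG fell to 64.8% of wildtype in knockout cells, -0.63 on the log2 scale, with SE 0.0478 and an adjusted p of 1.65e-06 by edgeR's quasi-likelihood test. The transcript was therefore reduced but present. Over all genes tested, knockout replicate 3 was nearer to each wildtype library than to the other knockout libraries. Knockout replicates 1 and 2 stood apart from the other 4 libraries along GC content. Slopes were taken of each library's log2 CPM relative to the mean of all 6, for each 10 points of transcript GC. They were -0.0691 and -0.0466 in knockout replicates 1 and 2, against 0.0353 in knockout replicate 3 and 0.0203 to 0.0318 in wildtype libraries. Because that mean is shared, negative slopes in some libraries force positive ones in others. The GC difference touches collagens, whose 25 tested transcripts were GC-rich, with a median of 61.1% GC beside 48.0% over all genes tested. All 9 markers of the Ewing sarcoma line were detected, summing to 2982 to 3015 CPM in knockout and 3044 to 3113 CPM in wildtype libraries; CD99, the surface marker of Ewing sarcoma, was called lower (log2 fold change -0.12, adjusted p = 0.0302). The 6 fibroblast markers summed to 15.2 to 16.5 CPM in knockout and 14.9 to 16.0 CPM in wildtype libraries. Of these, DCN, THY1, LUM and FAP averaged 6.88, 4.43, 3.37 and 1.11 CPM in knockout cells. In wildtype cells they averaged 6.48, 3.94, 4.03 and 1.01 CPM. POSTN was at 0, and PDGFRA at most at 0.0632 CPM in knockout and 0.0890 CPM in wildtype libraries. Endothelial, epithelial and blood markers, 4 of each, averaged summed levels of 0.0756, 0.257 and 0.127 CPM in knockout and 0.127, 0.279 and 0.114 CPM in wildtype cells. The 5 osteoblast markers summed to 25.5 to 29.2 CPM in knockout and 32.1 to 35.6 CPM in wildtype libraries, nearly all of it ALPL, which was called lower; DMP1, IBSP and SP7 were at 0. The 5 chondrocyte markers summed to 1.48 to 2.01 CPM in knockout and 2.06 to 2.53 CPM in wildtype libraries. Their part in the collagen results was not tested. In bulk RNA, fewer cells expressing a gene and less RNA per cell cannot be told apart.

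TC-71 cells held a mixed collagen repertoire led by a single chain. Together the collagen genes took 603, 626 and 647 CPM in knockout replicates 1, 2 and 3 and 636, 649 and 634 CPM in wildtype replicates 1, 2 and 3, ranges that overlap. COL5A2, the alpha 2 chain of type V collagen, which regulates fibril diameter, supplied 36.7% to 38.7% of that sum in knockout and 36.5% to 37.0% in wildtype libraries. Fibrillar genes as a class held 59.2% to 61.0% of collagen CPM in knockout and 61.0% to 62.0% in wildtype libraries. Type IV genes held 3.65% to 4.03% in knockout and 3.98% to 4.49% in wildtype libraries. Of the 44 genes, 25 passed the filter on low counts and were tested, 9 fibrillar, 3 type IV and 13 others.

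**Figure D1:**
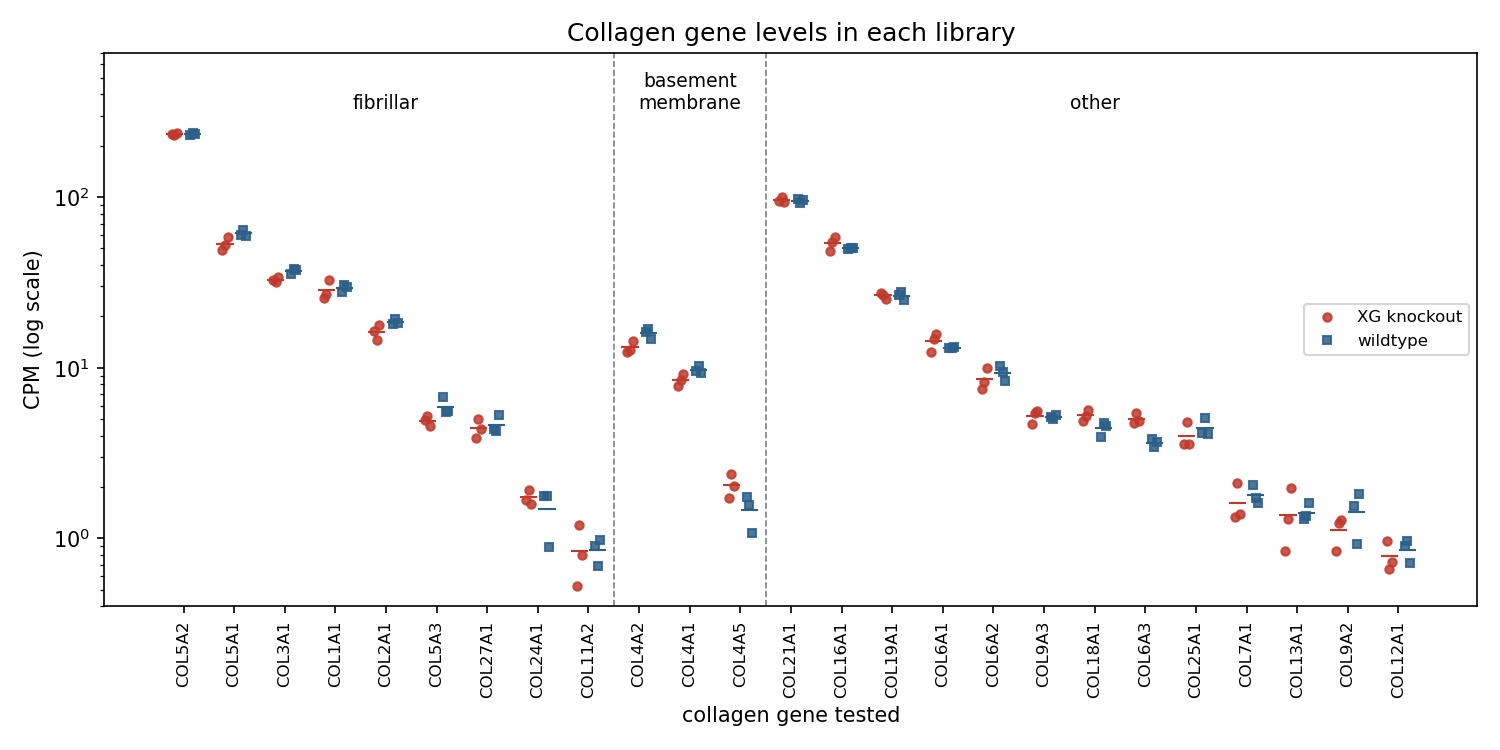
CPM (log axis) of the 25 collagen genes tested in each of the 3 XG knockout libraries (circles) and 3 wildtype libraries (squares), by class and level, with lines at group means. COL5A2 lies above all other collagen genes in every library, followed by COL21A1 at 93.3 to 99.8 CPM in knockout and 92.6 to 97.1 CPM in wildtype libraries.

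Levels of different genes were compared as CPM per kilobase of annotated exon. COL5A2 stood at 32.0 ± 0.462 CPM per kilobase in knockout and 32.1 ± 0.421 in wildtype cells (SD, n = 3 each). COL21A1, a FACIT chain, followed at 13.9 CPM per kilobase in knockout and 13.8 in wildtype cells. Over the 6 libraries these leading levels did not overlap each other or those of any collagen gene below them. COL16A1, another FACIT chain, COL3A1, the fibrillar chain of soft tissues, and COL5A1, the alpha 1 chain of type V, came next at 5.83, 4.86 and 4.77 CPM per kilobase in knockout and 5.44, 5.46 and 5.49 in wildtype cells, and their ranges over libraries overlapped. COL1A1, COL2A1, COL6A1 and COL19A1 followed, at 2.41 to 2.91 CPM per kilobase in knockout and 2.40 to 2.99 in wildtype cells. Each overlapped the next in this order, but every COL1A1 value (2.63 or more) lay above every COL19A1 value (2.52 or less). An alternative chosen after seeing the data used the length of the longest transcript in place of all annotated exons. With it the leading 3 kept their order and COL5A1 came before COL3A1. COL19A1 moved up to rank 7 from rank 9, ahead of COL2A1 and COL6A1, and COL4A2 to rank 11 from rank 13. COL5A3 moved down to rank 14 from rank 12, and other genes also changed rank.

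Several chains lacked the partner with which they usually assemble. Type I collagen, the main collagen of bone, is normally a trimer of alpha 1 and alpha 2 chains. COL1A1 was at 25.8, 27.2 and 32.7 CPM in knockout replicates 1, 2 and 3 and at 27.9, 30.4 and 29.7 CPM in wildtype replicates 1, 2 and 3. COL1A2 had 2, 2 and 0 counts in the same knockout libraries and 3, 0 and 0 in the wildtype ones. COL1A2 was thus 4 of 2452 type I counts in knockout cells, a share of 0.163% (exact 95% interval 0.0445% to 0.417%), and 3 of 2235 in wildtype cells, 0.134% (0.0277% to 0.392%), with intervals that cover counting error only. COL1A1 itself did not pass the test, at a fold change of -0.037 on the log2 scale with SE 0.0723 and an edgeR adjusted p of 0.845. Its 95% interval ran from 87.8% to 108.3% of wildtype.

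Cartilage collagens were present in part. COL2A1, the chain of type II collagen, was at 16.3, 14.5 and 17.7 CPM in knockout replicates 1, 2 and 3, against 18.1, 19.3 and 18.2 CPM in wildtype replicates 1, 2 and 3. All knockout values lay below all wildtype values, but the difference did not pass (log2 fold change -0.20, SE 0.0735, edgeR adjusted p = 0.178). COL2A1 came to -0.10 with GC correction (adjusted p = 0.485) and -0.12 without knockout replicate 2. Type IX collagen, which decorates type II fibrils, showed COL9A3 at 5.22 ± 0.494 CPM in knockout and 5.14 ± 0.111 CPM in wildtype cells (SD, n = 3 each) and COL9A2 at 1.12 CPM in knockout and 1.43 CPM in wildtype cells, while COL9A1 had 0 counts in every library. COL11A2 was at 0.839 CPM in knockout and 0.858 CPM in wildtype cells, and its partner COL11A1 had 0 counts. The cartilage proteoglycan gene ACAN was also at 0 in all libraries. SOX9, the factor that switches on COL2A1 in chondrocytes, was at 0.0803 CPM or less in knockout and 0.178 CPM or less in wildtype libraries. Of the other chondrocyte markers, MATN3 averaged 1.24 CPM in knockout and 1.42 CPM in wildtype cells. CNMD averaged 0.421 and 0.799 CPM in the same order, and COMP 0.0507 and 0.0128 CPM. SOX6 and SOX5, listed as transcription factors of collagen genes, averaged 128 and 1.61 CPM in knockout cells. In wildtype cells they averaged 126 and 1.21 CPM.

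Of the 19 genes not tested, 6 had 0 counts in all 6 libraries: COL8A1, COL9A1, COL11A1, COL17A1, COL20A1 and COL22A1. A count of 0 allows a level of up to 0.0949 to 0.121 CPM in knockout and 0.109 to 0.133 CPM in wildtype libraries, taking 3 counts per library as the limit. A further 6 had 5 counts or fewer in all: COL4A3, COL6A5, COL6A6, COL10A1, COL23A1 and COL26A1. The remaining 7, COL1A2, COL4A4, COL4A6, COL8A2, COL14A1, COL15A1 and COL28A1, reached at most 14 counts in a library. Among the 19 were all 3 short-chain network collagens, COL8A1, COL8A2 and COL10A1, the last a product of hypertrophic cartilage, and COL17A1, the hemidesmosome collagen of epithelia. Some lie beside an active relative: COL9A1, at 0 counts, ends 2593 bp from COL19A1, which had 4283 counts over the 6 libraries, and COL20A1, at 0, lies 452027 bp from COL9A3, which had 840. The neighbours COL6A5 and COL6A6 had 1 count each.

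No collagen gene was called different between XG knockout and wildtype cells. At an adjusted p under 0.05 by edgeR's quasi-likelihood test, 0 of 25 were called, against 1.36% of all 14425 genes tested (0.444% higher and 0.915% lower), and limma voom also called 0. DESeq2 called 0 of the 13 collagens to which it gave an adjusted p; the other 12, COL6A3, COL18A1 and COL4A5 among them, had none. At an unadjusted p under 0.05 by edgeR there were 9 collagens, 6 lower and 3 higher, a share of 36.0% against 16.8% of all genes; over all genes 9.81% were lower and 6.98% higher. Groups did not overlap in 8 of 25, or 32.0%, against 20.5% of all genes: 6 lay lower in knockout, against 9.8% of all genes, and 2 higher, against 10.7%. The median log2 fold change of the 25 was -0.037, and 0.0019 over all genes tested. By class the median was -0.053 over 9 fibrillar, -0.19 over 3 type IV and 0.0017 over 13 other genes. The fibrillar median ran from -0.17 to -0.0062 over the alternatives and the type IV median from -0.25 to -0.08.

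**Figure D2:**
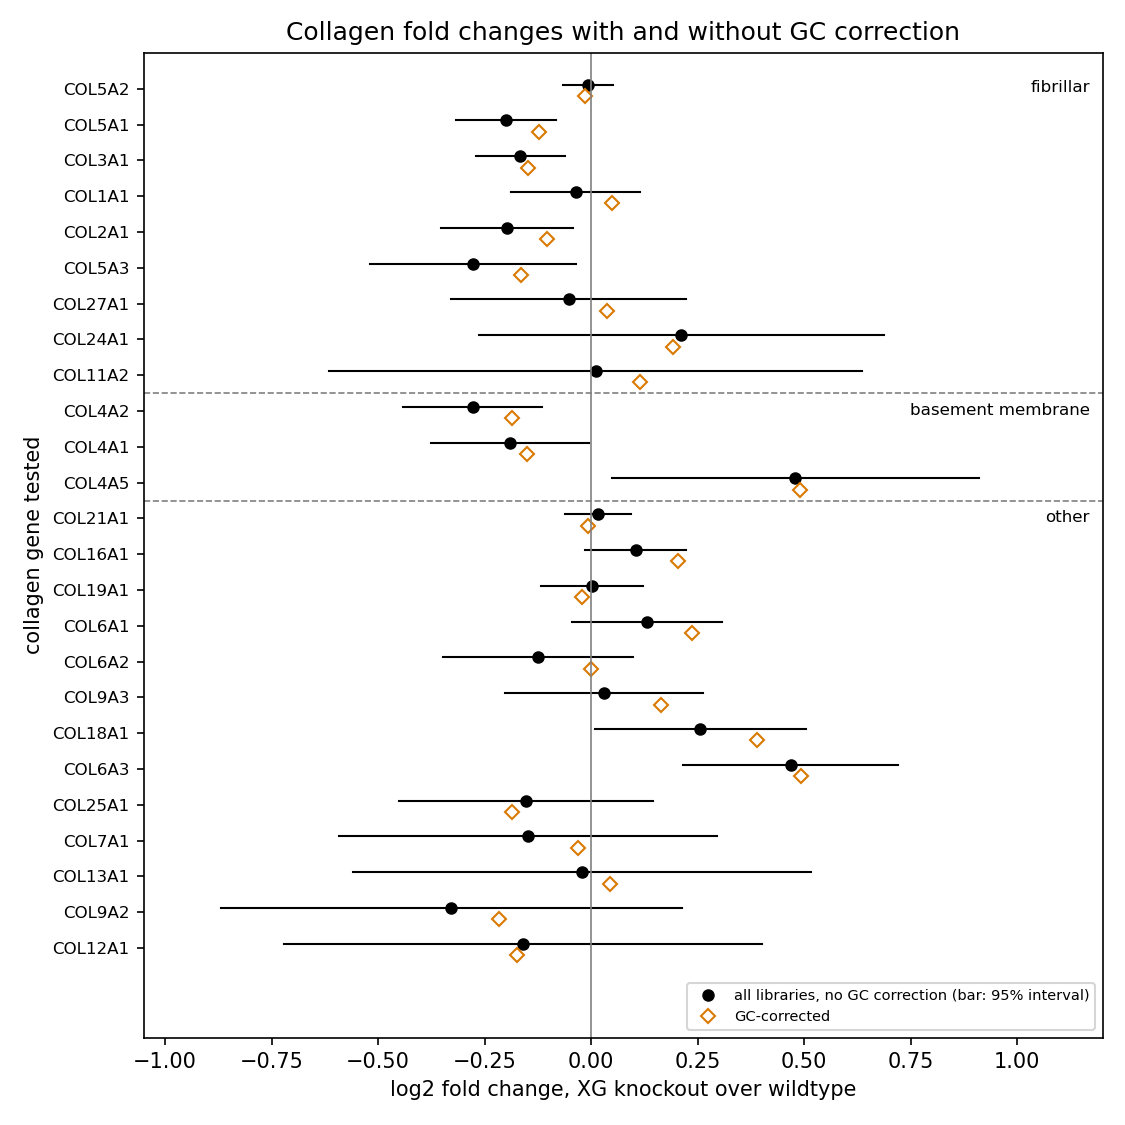
Log2 fold change of the 25 collagen genes tested, XG knockout over wildtype, by class, with 95% intervals (circles) and after GC correction (diamonds, no interval drawn). COL5A2 and COL21A1 have narrow intervals around 0, fibrillar and type IV chains with intervals below 0 include COL5A1, COL3A1 and COL4A2, and COL4A5 and COL6A3 have the highest values.

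The chains with the highest levels, COL5A2 and COL21A1, and the FACIT chain COL19A1 had fold changes close to 0. COL5A2 had 233, 231 and 238 CPM in knockout replicates 1, 2 and 3 and 232, 239 and 235 CPM in wildtype replicates 1, 2 and 3. Its 95% interval was 95.5% to 103.6% of wildtype (log2 fold change -0.0077, SE 0.028). COL21A1 had 95.2, 99.8 and 93.3 CPM in knockout and 97.1, 92.6 and 95.7 CPM in wildtype libraries, an interval of 95.8% to 106.6%. COL19A1, a FACIT chain found in muscle and brain, had 27.5, 26.7 and 25.4 CPM in knockout and 26.6, 27.8 and 25.004 CPM in wildtype libraries, an interval of 92.1% to 108.8%. In these genes the libraries of both groups interleaved, and the sign of the fold change depended on the libraries, the scaling or the GC correction.

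Among fibrillar genes, the partners of COL5A2 were lower in knockout libraries without passing the test. COL5A1 was at 48.7, 52.5 and 58.5 CPM in knockout replicates 1, 2 and 3, against 60.3, 64.2 and 59.3 CPM in wildtype replicates 1, 2 and 3. Knockout replicate 3 came within 1 CPM of the lowest wildtype library, and the groups did not overlap. COL5A1 had a fold change of -0.20 on the log2 scale (SE 0.0554, adjusted p = 0.0809 by edgeR), and in the authors' deposited table it was also -0.20 with an adjusted p of 0.0606, the lowest of the 7 collagens given one there. COL5A3, the third type V chain, was at 4.94, 5.22 and 4.52 CPM in knockout and 6.69, 5.49 and 5.56 CPM in wildtype libraries (log2 fold change -0.28, SE 0.115, edgeR adjusted p = 0.231). COL5A3 came to -0.17 both with GC correction and without wildtype replicate 1. COL5A2 stood at 6.73 ± 0.558 times COL5A1 per kilobase in knockout and 5.86 ± 0.184 times in wildtype cells (SD, n = 3 each), and this ratio did not overlap between the groups. By longest transcript it was 5.28 in knockout and 4.60 in wildtype cells. The ratio, like the others given here, was chosen after its values were seen. With COL5A2 itself close to unchanged, its ratios to COL5A1 and COL3A1 restate the lower levels of those genes. COL1A1 over COL3A1, also computed, overlapped between the groups, at 0.597 in knockout and 0.548 in wildtype cells (0.715 and 0.656 by longest transcript). How often ratios of other gene pairs overlap was not computed.

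COL3A1 was at 32.6, 32.0 and 34.0 CPM in knockout replicates 1, 2 and 3, against 35.5, 37.9 and 37.3 CPM in wildtype replicates 1, 2 and 3. Unlike COL5A1, its knockout libraries lay close together, with a coefficient of variation of 3.08% against 9.27% for COL5A1. On the log2 scale COL3A1 differed by -0.17 (SE 0.0499), with an edgeR adjusted p of 0.103. COL3A1 (chromosome 2, 188974373 to 189012746, plus strand, GRCh38) and COL5A2 (189031898 to 189225312, minus strand) are convergent neighbours 19152 bp apart. COL5A2 stood at 6.58 ± 0.107 times COL3A1 per kilobase in knockout and 5.89 ± 0.140 times in wildtype cells (SD, n = 3 each). By longest transcript this ratio was 5.58 in knockout and 4.99 in wildtype cells.

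**Figure D3:**
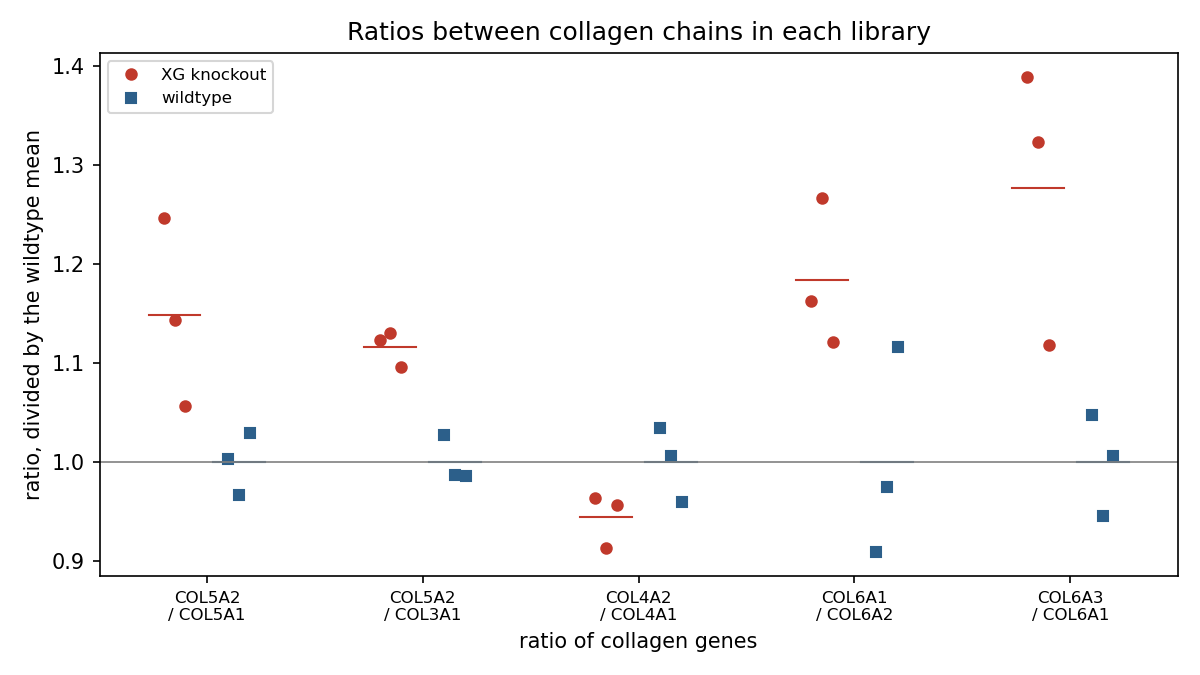
Ratio of pairs of collagen genes in each library, divided by its wildtype mean, for 3 XG knockout (circles) and 3 wildtype (squares) libraries, with lines at group means. Knockout libraries lie above wildtype libraries for COL5A2 over COL5A1, COL5A2 over COL3A1, COL6A1 over COL6A2 and COL6A3 over COL6A1, and overlap them for COL4A2 over COL4A1. The groups nearly touch for COL6A1 over COL6A2. COL1A1 over COL3A1, which was also computed and overlaps, is not drawn.

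Type IV genes lie in the genome as head-to-head pairs, and the pairs stood at different levels in these cells. COL4A1 and COL4A2, whose products form the basement membrane trimer found in most tissues, were both on. COL4A5 was on at a low level while COL4A6, on the other side of their shared promoter region, had 14 counts in all 6 libraries against 290 for COL4A5. COL4A3 and COL4A4, chains of the kidney glomerulus and other specialised membranes, had 4 and 32 counts in all. RefSeq promoter windows of these pairs overlap: by 226 bases for COL4A1 and COL4A2, 121 for COL4A6 and COL4A5, and 82 for COL4A4 and COL4A3. Only part of each window is thus shared, and that part is not marked below. One window per pair, in RefSeq on GRCh38.p14, is printed around the RefSeq start of the named gene, 5′ to 3′ on its strand. They are chr13:110307034-110307333 on the plus strand for COL4A2, chrX:108439588-108439887 on the plus strand for COL4A5, and chr2:227164374-227164673 on the plus strand for COL4A3. The motifs searched, on both strands, were the CCAAT box with letters CCAAT, the GC box with letters GGGCGG, the TATA box with letters TATAAA and a GGAA repeat with letters GGAAGGAA. Capitals mark every match, and none of the matches shown overlap.
COL4A2: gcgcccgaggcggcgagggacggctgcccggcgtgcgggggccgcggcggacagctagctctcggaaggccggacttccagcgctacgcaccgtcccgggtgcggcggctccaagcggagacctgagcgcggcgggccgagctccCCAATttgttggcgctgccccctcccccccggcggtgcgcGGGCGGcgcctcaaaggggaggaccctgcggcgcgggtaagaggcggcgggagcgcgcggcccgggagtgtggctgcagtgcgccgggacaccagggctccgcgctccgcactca
COL4A5: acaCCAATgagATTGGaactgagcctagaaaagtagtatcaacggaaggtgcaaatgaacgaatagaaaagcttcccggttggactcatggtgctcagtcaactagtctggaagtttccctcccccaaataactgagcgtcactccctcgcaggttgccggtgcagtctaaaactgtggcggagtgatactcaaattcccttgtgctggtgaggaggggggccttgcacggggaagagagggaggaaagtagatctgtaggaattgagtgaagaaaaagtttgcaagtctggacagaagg
COL4A3: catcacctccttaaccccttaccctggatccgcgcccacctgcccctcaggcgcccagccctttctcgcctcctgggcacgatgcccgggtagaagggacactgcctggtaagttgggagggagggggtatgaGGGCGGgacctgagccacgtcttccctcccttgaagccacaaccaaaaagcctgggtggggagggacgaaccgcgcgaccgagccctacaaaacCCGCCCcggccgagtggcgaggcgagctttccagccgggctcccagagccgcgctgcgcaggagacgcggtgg

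The COL4A2 window, from the active pair, held 45 CpG sites, a CCAAT box and a GC box. The COL4A5 window held 8 CpG sites and CCAAT boxes on opposite strands, and the near-silent COL4A3 window 24 CpG sites and GC boxes on opposite strands. The GC boxes of the COL4A3 window lie outside the bases shared with COL4A4. Over 35116 RefSeq windows, 34.6% held a CCAAT box, 15786 a GC box, 11.5% a TATA box and 3.67% a GGAA repeat, and the median number of CpG sites was 14. The RefSeq start of COL4A2 lies 1472 bp inside the 5′ end that the count table gives. Of the collagen genes, 32 had a window. Those without one include COL5A2, COL3A1, COL1A1, COL2A1, COL6A1 and COL9A3, all among the 12 highest per kilobase. The median CpG count was 22 over 19 tested and 24 over 13 untested genes. None of the 32 windows held a GGAAGGAA repeat.

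COL4A2 was at 12.3, 12.7 and 14.4 CPM in knockout replicates 1, 2 and 3, against 16.3, 16.8 and 14.7 CPM in wildtype replicates 1, 2 and 3. COL4A1 was at 7.79, 8.48 and 9.18 CPM in knockout and 9.59, 10.2 and 9.34 CPM in wildtype libraries. In both genes the groups did not overlap, with knockout replicate 3 nearest to wildtype. Log2 fold changes were -0.28 (SE 0.0775, edgeR adjusted p = 0.0818) for COL4A2 and -0.19 (SE 0.0881, edgeR adjusted p = 0.281) for COL4A1. Their ratio per kilobase was 1.18 ± 0.0341 in knockout and 1.25 ± 0.0469 in wildtype cells (SD, n = 3 each), or 1.58 and 1.67 by longest transcript, and overlapped between groups. COL4A5 was at 1.73, 2.37 and 2.04 CPM in knockout and 1.74, 1.57 and 1.07 CPM in wildtype libraries, which overlapped. COL4A5 differed by 0.48 on the log2 scale (SE 0.205), which did not pass (edgeR adjusted p = 0.245), and by 0.31 without wildtype replicate 3.

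Type VI collagen forms beaded microfilaments around cells from the chains of COL6A1, COL6A2 and COL6A3. COL6A3, its longest chain, had the smallest p of any collagen gene in the edgeR fit to all 6 libraries; in DESeq2 that was COL5A1, and with GC correction COL16A1. It was at 4.74, 5.41 and 4.90 CPM in knockout replicates 1, 2 and 3, against 3.80, 3.42 and 3.69 CPM in wildtype replicates 1, 2 and 3, so that all knockout libraries lay above all wildtype libraries. The log2 fold change was 0.47 (SE 0.120), 138.3% of wildtype with a 95% interval of 116.2% to 164.8%, and edgeR's adjusted p was 0.0600. With GC correction COL6A3 passed (log2 fold change 0.49, SE 0.124, adjusted p = 0.0240), but not with the replicate block as well (adjusted p = 0.0633). When each library was left out, its fold change lay between 0.40 and 0.50 with adjusted p from 0.0155, without knockout replicate 3, to 0.261. COL6A1 was at 12.3, 14.8 and 15.8 CPM in knockout and 13.1, 13.1 and 13.3 CPM in wildtype libraries, and COL6A2 at 7.51, 8.25 and 10.0 CPM in knockout and 10.2, 9.48 and 8.41 CPM in wildtype libraries. Both overlapped between groups, at log2 fold changes of 0.13 (SE 0.0835) and -0.13 (SE 0.106). COL6A1 came to 0.24 with GC correction (adjusted p = 0.0718), 0.22 without knockout replicate 1 and 0.056 without knockout replicate 3. COL6A2 came to -0.0015 with GC correction, -0.25 without knockout replicate 3, -0.20 without wildtype replicate 3, -0.058 without wildtype replicate 1 and -0.047 without knockout replicate 1. These genes lie 93062 bp apart on chromosome 21, on the same strand. COL6A1 stood at 1.68 ± 0.107 times COL6A2 per kilobase in knockout and 1.42 ± 0.150 times in wildtype cells (SD, n = 3 each). By longest transcript this ratio was 1.36 in knockout and 1.15 in wildtype cells. The groups did not overlap but nearly touched. Per kilobase of exon, the lowest knockout ratio was 1.590, in replicate 3, and the highest wildtype ratio 1.584, in replicate 3. COL6A3 stood far below its partners per kilobase, at 0.0964 ± 0.0107 times COL6A1 in knockout and 0.0755 ± 0.00388 times in wildtype cells (SD, n = 3 each). By longest transcript this ratio was 0.139 in knockout and 0.109 in wildtype cells.

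COL18A1, a basement membrane collagen whose end fragment is endostatin, was at 4.90, 5.22 and 5.63 CPM in knockout and 3.94, 4.72 and 4.58 CPM in wildtype libraries. The groups did not overlap, and its difference of 0.26 on the log2 scale did not pass (SE 0.118, edgeR adjusted p = 0.280; with GC correction 0.39, adjusted p = 0.0744).

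COL16A1, a FACIT chain that binds integrins, passed the test after GC correction and not before it. It was at 48.2, 54.9 and 58.8 CPM in knockout replicates 1, 2 and 3, against 49.8, 50.6 and 50.5 CPM in wildtype replicates 1, 2 and 3. Knockout libraries spread around the narrow wildtype values, with a coefficient of variation of 9.94% in knockout and 0.876% in wildtype cells. COL16A1 differed by 0.10 on the log2 scale (SE 0.0564, edgeR adjusted p = 0.370), which became 0.20 with GC correction (SE 0.0404, adjusted p = 0.0024), where COL16A1 and COL6A3 were the 2 of 25 collagens called, against 2.35% of all genes. With knockout replicate 3 alone it was 0.23 (adjusted p = 0.00608; 0.83% of all genes called), in a fit that assumes the lone library varies like the wildtype ones. Without knockout replicate 3 it was 0.042 (adjusted p = 0.644). With GC correction and the replicate block together COL16A1 was the collagen called (0.20, adjusted p = 0.0116), against 1.28% of all genes.
The RefSeq promoter windows of the genes called after GC correction are given with the same marks, at chr2:237414115-237414414 on the minus strand for COL6A3 and chr1:31703968-31704267 on the minus strand for COL16A1.
COL6A3: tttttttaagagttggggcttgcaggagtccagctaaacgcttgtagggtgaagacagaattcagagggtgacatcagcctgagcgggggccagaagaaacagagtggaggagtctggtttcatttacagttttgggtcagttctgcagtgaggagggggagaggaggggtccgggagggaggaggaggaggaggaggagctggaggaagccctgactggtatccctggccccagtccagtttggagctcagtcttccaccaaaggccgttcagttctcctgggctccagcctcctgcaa
COL16A1: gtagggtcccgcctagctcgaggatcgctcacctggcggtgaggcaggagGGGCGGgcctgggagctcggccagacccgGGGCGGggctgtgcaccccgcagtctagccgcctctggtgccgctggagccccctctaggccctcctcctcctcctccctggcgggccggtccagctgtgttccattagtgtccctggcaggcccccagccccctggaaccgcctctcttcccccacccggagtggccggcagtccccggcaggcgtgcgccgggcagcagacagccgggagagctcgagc

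The COL6A3 window held 4 CpG sites and none of the motifs searched, and the COL16A1 window held 22 CpG sites and 2 GC boxes. The start in the COL16A1 window lies 302 bp from the 5′ end of the gene in the count table.

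In 11 of the 25 collagens, knockout replicate 1 was lowest and replicate 3 highest of the knockout libraries, the order of their GC slopes, against 19.4% of all genes tested; this count was chosen after seeing the data. These collagens, COL1A1, COL4A1, COL4A2, COL5A1, COL6A1, COL6A2 and COL16A1 among them, had transcripts of 55.4% to 67.4% GC. Other GC-rich collagens did not show this order: COL2A1, COL5A3, COL7A1, COL11A2 and COL27A1, at 61.3% to 64.8% GC. Over all genes with this order the median transcript GC was 56.9%, beside 48.0% over all genes tested. The share with this order among genes of like GC content was not computed. The cause of the order was not tested. GC correction brought the median log2 fold change of the 25 collagens to -0.0065, with 14 negative and 11 positive values. The COL5A1 fold change became -0.12 (SE 0.0395, edgeR adjusted p = 0.104) and that of COL4A2 -0.19 (SE 0.0684, edgeR adjusted p = 0.156). COL3A1, with a GC content of 52.1%, moved from -0.17 to -0.15 (SE 0.0457, edgeR adjusted p = 0.0775). Leaving out knockout replicate 3 gave 5 collagen calls, COL2A1, COL3A1, COL4A2 and COL5A1 lower and COL6A3 higher, against 12.7% of all genes in that fit. With knockout replicate 3 alone COL16A1 was the collagen called, and the COL5A1 and COL2A1 fold changes were -0.066 and -0.065.

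**Figure D4:**
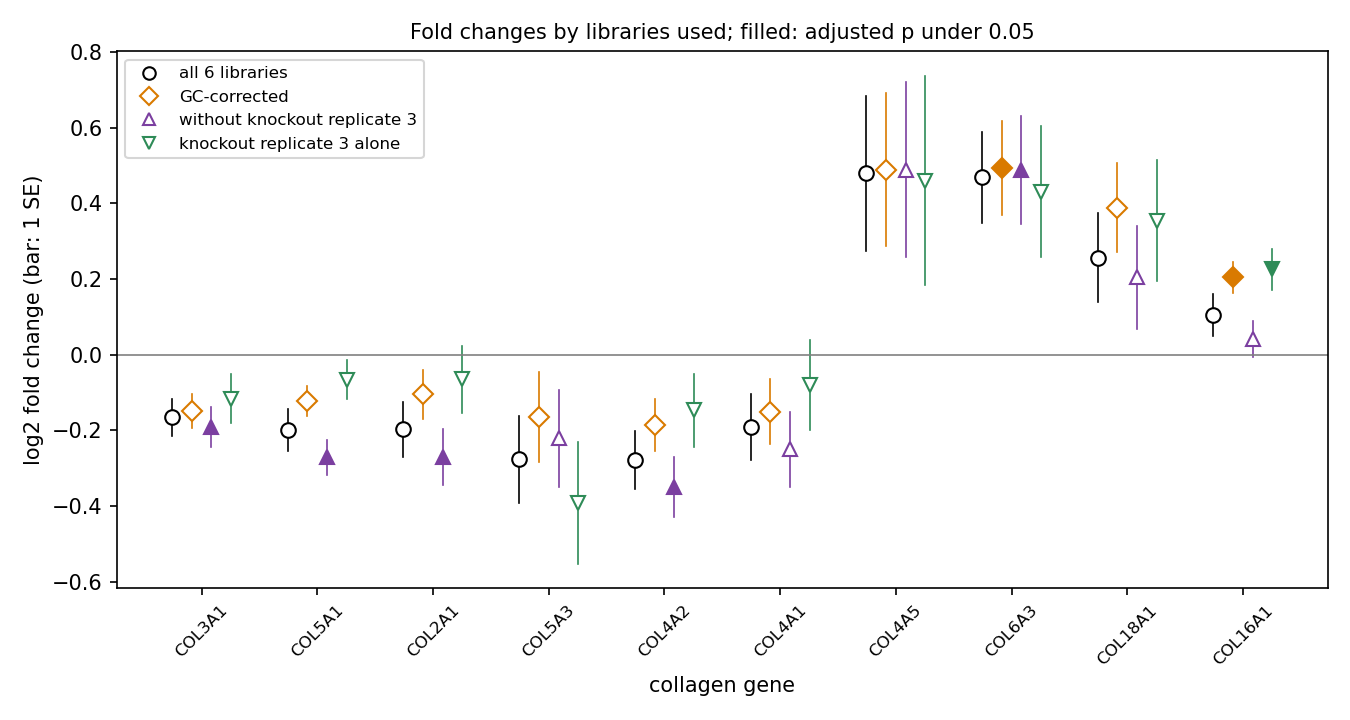
Log2 fold change with its SE (bars) of 10 collagen genes in 4 fits: all 6 libraries, GC-corrected, without knockout replicate 3, and knockout replicate 3 alone. Filled symbols passed an adjusted p under 0.05: 5 genes without knockout replicate 3, COL6A3 and COL16A1 with GC correction, and COL16A1 with knockout replicate 3 alone.

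The 8 tested collagens with lower levels and an unadjusted p above 0.05 did not pass in any fit run. They are COL27A1 and COL24A1, fibrillar chains; COL25A1 and COL13A1, which span the cell membrane; COL7A1 of anchoring fibrils; COL12A1, a FACIT chain of tendon; and COL9A2 and COL11A2. Their levels ran from 0.784 CPM for COL12A1 to 4.42 CPM for COL27A1 in knockout cells and from 0.858 CPM for COL11A2 to 4.64 CPM for COL27A1 in wildtype cells. Log2 fold changes lay between -0.33 for COL9A2 and 0.21 for COL24A1, and SEs between 0.132 and 0.298.

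Genes that make, export and anchor collagen were described by 7 lists, in 6 of which edgeR and limma voom called 0 genes. DESeq2 also called 0 in these 6. It gave an adjusted p to all 8 genes tested for procollagen export. In the other lists it gave one to part of the tested members only, such as 3 of the 9 for degradation. The shares over all genes tested were 1.36% for calls and 16.8% for an unadjusted p under 0.05. Of 19 genes for modification and folding, all 19 were tested and 4 (21.1%) had an unadjusted p under 0.05, with a median log2 fold change of -0.01 beside 0.0019 over all genes. The smallest p values in this list were those of PLOD2, a lysyl hydroxylase of bone collagen, at 36.9, 34.8 and 31.6 CPM in knockout and 32.0, 31.1 and 29.6 CPM in wildtype libraries, and of P3H3, a prolyl hydroxylase relative, at 27.9, 29.7 and 31.5 CPM in knockout and 31.4, 34.4 and 32.8 CPM in wildtype libraries. Both sets overlapped, at log2 fold changes of 0.15 and -0.14. For procollagen export 8 of 9 genes were tested, 2 of which had an unadjusted p under 0.05 and the median was 0.033, with KLHL12 and SEC31A, which shape large transport vesicles, at 0.10 and 0.066.

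The 2 calls came from propeptide processing and cross-linking, where 13 of 16 genes were tested, 6 (46.2%, against 16.8% of all genes) had an unadjusted p under 0.05 and the median was -0.0005. LOXL1, a lysyl oxidase that cross-links collagen and elastin, fell to 14.9, 16.3 and 16.5 CPM in knockout replicates 1, 2 and 3, against 20.3, 20.8 and 19.0 CPM in wildtype replicates 1, 2 and 3. It differed by -0.33 on the log2 scale (SE 0.0659), with an edgeR adjusted p of 0.0170, and all knockout libraries lay below all wildtype ones. With a transcript GC content of 67.6%, LOXL1 had -0.20 on the log2 scale and an adjusted p of 0.104 after GC correction. TLL1, a protease that trims procollagen ends, rose to 11.01, 10.6 and 12.01 CPM in knockout libraries, against 8.32, 8.29 and 9.08 CPM in wildtype libraries (log2 fold change 0.39, SE 0.0843, edgeR adjusted p = 0.0284). Both calls were lost in 5 of the 6 fits that leave out a library, with adjusted p from 0.0589 to 0.139 for LOXL1 and from 0.0594 to 0.166 for TLL1, and held when knockout replicate 3 was the one left out. LOXL1 also lost its call with knockout replicate 3 alone (adjusted p = 0.0994).

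No call was made among 7 tested of 14 fibril-associated matrix genes, 10 of 15 collagen receptors, 9 of 12 genes of collagen degradation and 8 of 12 transcription factors of collagen genes. Of these, 3, 1, 3 and 0 had an unadjusted p under 0.05 (16.8% of all genes did), and the median log2 fold changes were -0.099, 0.037, 0.0073 and 0.0049. SPARC, a collagen-binding protein of bone, was at 120, 111 and 117 CPM in knockout and 106, 110 and 110 CPM in wildtype libraries (log2 fold change 0.10, edgeR adjusted p = 0.171), and TNC, an adhesion-modulating glycoprotein, had -0.22 (adjusted p = 0.191). DDR2, a receptor tyrosine kinase for fibrillar collagen, was at 128, 127 and 118 CPM in knockout and 117, 115 and 117 CPM in wildtype libraries, without overlap (log2 fold change 0.09, edgeR adjusted p = 0.188). ITGB1, the beta chain of collagen-binding integrins, had 0.058 (adjusted p = 0.310). MMP9, a gelatinase, was at a low level, 1.22 ± 0.305 CPM in knockout and 0.638 ± 0.152 CPM in wildtype cells (SD, n = 3 each; log2 fold change 0.93, edgeR adjusted p = 0.105), and PEPD, which recycles proline from collagen, had -0.14 (adjusted p = 0.144). SMAD3 and SOX5 had the smallest p among the transcription factors, at -0.10 and 0.40. With GC correction 3 members of these and the modification list were called, against 2.35% of all genes: FKBP10, a folding enzyme of procollagen, MRC2, an endocytic collagen receptor, and MMP9 (adjusted p = 0.0397). Without knockout replicate 3, where 12.7% of all genes were called, 8 were: P3H3, P4HA1, P4HB, PLOD2, PLOD3, DDR2, PEPD and BGN. In the fit to all libraries the modification list had 19 genes tested. The fibril-associated, receptor, degradation and transcription factor lists had 7, 10, 9 and 8. Whether the share called in these lists differs from that over all genes was not tested.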

How the data were processed

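Whole-number fragment counts per gene were deposited for 6 libraries; per the file headers the authors made them with featureCounts 2.0.1 on exons of GENCODE 33, paired-end and reverse-stranded, which keeps antisense genes apart and drops fragments mapping to several places. Per the submitters' processing notes, reads were aligned with STAR 2.7.6a to GRCh38. The authors deposited log2 fold changes, SEs and p-values from DESeq2 1.38.3, per the submitters' processing notes; their direction, not stated, was that of knockout over wildtype in 100% of 2351 genes changed by over 0.2 on the log2 scale.

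Genes were kept by filterByExpr (minimum count 10, minimum total 15; 14425 genes), normalized with TMM factors and fitted in R 4.3.3 by the quasi-likelihood model of edgeR 4.0.16 (glmQLFit, then glmQLFTest; two-sided p, Benjamini-Hochberg adjustment over every gene tested). SEs come from the F statistic. CPM are counts over TMM-adjusted library sizes. Values per library are given for collagens with an unadjusted p under 0.05 or among the 12 highest per kilobase, and for up to 4 called members, or otherwise 2 by smallest p, of each list. Members and lists were chosen with earlier results of these data known. Replicate pairs differed by more than sampling noise (chi-square per gene 1.46 to 4.72). By this measure knockout replicate 3 lay 4.72 and 4.46 from knockout replicates 1 and 2, and 2.18 to 2.51 from the wildtype libraries. Knockout replicates 1 and 2 lay 4.51 to 6.77 from the wildtype libraries.

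Alternatives were other scalings (RLE, upper quartile), DESeq2 1.42.0, limma 3.58.1 voom, other filters (none; at least 100 counts in 3 libraries), a replicate block, a GC correction (lowess, span 0.5, on the longest GENCODE 29 transcript, known for 99.54% of tested genes), left-out libraries and an adjusted p of 0.01. The scripts were tested on simulated counts, with and without a GC trend.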

Additional observations from a re-analysis of the deposited data

How the results depend on the processing

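Collagen calls numbered 0 in edgeR, and became 3 with no filter on low counts (2.37% of all genes called), 2 with GC correction, 1 with the replicate block and GC correction (1.28%), 1 with knockout replicate 3 alone (0.83%), and 0 to 5 when each library was left out. With no filter these were COL4A2, COL5A1 and COL6A3. Calls over all genes numbered 196, and 647 with no filter, 37 with the replicate block, 339 with GC correction, 125 with knockout replicate 3 alone, 33 at an adjusted p under 0.01, and 18 to 1851 when each library was left out. Same-numbered knockout and wildtype libraries did not deviate together (correlations -0.0459, -0.0239 and -0.0512), so the replicate block pairs them by number only; it called 0 collagens. With the block LOXL1 and TLL1 lost their calls (adjusted p = 0.0661 and 0.0753), and with GC correction as well LOXL1 did (0.165). The XG fold change kept its call in all 16 alternatives, from -0.66 to -0.60. The collagen median moved between -0.064 and -0.0062.

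Fold changes near 0 changed sign without passing in any fit. With GC correction COL1A1, COL19A1 and COL21A1 came to 0.048, -0.021 and -0.0065, and with the replicate block as well to 0.041, -0.018 and -0.0068, with COL6A2 at 0.0027. With knockout replicate 3 alone COL1A1, COL5A2, COL6A2, COL19A1 and COL21A1 came to 0.16, 0.015, 0.0895, -0.062 and -0.028. Upper quartile scaling gave COL5A2 0.0021. With each library left out, COL1A1 ran from -0.14 to 0.026, COL5A2 from -0.019 to 0.0026, COL9A3 from -0.019 to 0.098, COL19A1 from -0.038 to 0.038 and COL21A1 from -0.017 to 0.037. The cause of these changes was not tested. The least precise values were those of COL4A5, COL7A1, COL9A2, COL11A2, COL12A1, COL13A1 and COL24A1, with SEs of 0.205 to 0.298 and 132 to 290 counts over the 6 libraries.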
